A study of Mus musculus with 24 samples.

Results

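10 genes that are known as regulators of tumour dormancy were followed across 7 mouse cell lines: the transcription factors Nr2f1, Bhlhe41, Sox9 and Rarb, the secreted factors Tgfb2, Bmp4, Thbs1 and Gas6, and the receptors Axl and Mertk. They were chosen by name and not by a filter on their values, though with earlier results of these data known. They make up 10 of the 22911 gene symbols on the array. All 10 were found through the RefSeq accessions of their probes, with 18 probes in all, and each gene was followed by its brightest probe. All 10 were above background on enough arrays (at least 3) to be tested among the melanoma lines, but only 2 of the 10 among the leukemia lines.

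RNA was measured with 24 one-colour mouse arrays in models of minimal residual disease, where tumour cells that stay behind after immunotherapy rest in the animal for a long time. B16-M (3 arrays) is the parental B16-F1 melanoma line, which carries GFP, and B16-D (4 arrays) is the line of dormant cells taken from mice that had been vaccinated with irradiated cells secreting GM-CSF. B16-D-733 (4 arrays), B16-D-735 (3) and B16-D-739 (3) are melanoma lines derived from dormant cells, which the methods describe as a further generation taken from the brain. The labels do not say which of them is which of the DB lines named in the growth protocol. M0-p20 (4 arrays) and J365-p20 (3) are labelled as leukemia cells only. They were read as the parental myeloid leukemia line DA1-3b and its dormant derivative, which came from a model using IL-12 vaccination. All lines had been expanded in culture before RNA was taken, so the arrays describe cultured lines and not cells at rest in the animal. No label gives the number of animals or clones behind a line, nor says that arrays of a line come from separate cultures, so p-values measure the spread between these arrays, which may be technical.

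Dormancy is a state in which disseminated tumour cells survive without net growth. NR2F1, an orphan nuclear receptor, is known to hold disseminated cells in this state together with SOX9 and the retinoic acid receptor RARB. TGF-β2 and BMP4, made by bone marrow and other niches, signal through SMAD proteins and p38 and raise the repressor BHLHE41 (also called DEC2) and CDK inhibitors. GAS6 is the ligand of the TAM receptors TYRO3, AXL and MERTK, and thrombospondin 1, the product of Thbs1, is a matrix protein of stable microvessels.

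The array labels were borne out by marker genes. All 8 melanocytic markers were above background on every array of the 5 melanoma lines. All 8 hematopoietic markers were so on every array of both leukemia lines. Ptprc and Laptm5 were above background on no melanoma array, but 2 to 4 hematopoietic markers were on every array of a melanoma line. In each leukemia line 3 melanocytic markers were above background on every array. The models were set apart by the summed relative signal, the sum over a list of intensities relative to the 75th percentile. For melanocytic markers it was at least 1440 in melanoma and at most 6.44 in leukemia. For hematopoietic markers it was at least 84.8 in leukemia and at most 11.7 in melanoma. Between 46.0% and 55.8% of the spots of 23 arrays were well above background. The remaining array, B16-D replicate 2, stood apart at 90.3%, and it is left out of all values here unless it is named. Values are log2 intensities relative to the 75th percentile of the array, called log2 signal, so that 0 is the 75th percentile. A group of 6 arrays, B16-D replicates 1 to 3 and B16-D-733 replicates 1 to 3, share a date in their titles, which may mark a batch. The main fits hold no term for that date, which was a block only in an alternative. Differences between lines were tested with limma across all genes, at an adjusted p of 0.05. In counts and shares of all genes, a gene is a gene symbol or a transcript whose probes matched no symbol. The array holds 22911 symbols and 22711 such transcripts, before the filter on background. In RNA from whole cultures, fewer cells that make a transcript and less transcript per cell cannot be told apart.

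The reference held a promoter for 8 of the 10 genes, not for Sox9 or Thbs1. The promoters of Rarb and Gas6, which passed the test between dormant lines, and of Bhlhe41, as an example of an element that the gene's own product binds, are shown. Each is the stretch of 250 bases before the start of transcription, from RefSeq on GRCm38.p6, written 5′ to 3′ on the strand of the gene. The Rarb stretch is chr14:16575477-16575726 on the minus strand. Capitals mark a direct repeat of receptor half-sites, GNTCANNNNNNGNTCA, the kind of element through which retinoic acid receptors are known to act on this gene.

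Rarb: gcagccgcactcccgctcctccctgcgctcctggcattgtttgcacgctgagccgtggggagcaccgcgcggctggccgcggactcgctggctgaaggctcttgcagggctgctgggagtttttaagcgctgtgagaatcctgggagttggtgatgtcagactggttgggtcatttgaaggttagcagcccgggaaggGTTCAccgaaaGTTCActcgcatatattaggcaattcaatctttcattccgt

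The repeat lies 52 to 37 bases before the start. Searched on both strands, it was found in 0.776% of the 32851 promoters of the reference and, among the 8 genes, in Rarb alone. The Gas6 stretch is chr8:13494536-13494785 on the minus strand, where capitals mark 4 copies of the GC box GGGCGG, read here on the opposite strand.

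Gas6: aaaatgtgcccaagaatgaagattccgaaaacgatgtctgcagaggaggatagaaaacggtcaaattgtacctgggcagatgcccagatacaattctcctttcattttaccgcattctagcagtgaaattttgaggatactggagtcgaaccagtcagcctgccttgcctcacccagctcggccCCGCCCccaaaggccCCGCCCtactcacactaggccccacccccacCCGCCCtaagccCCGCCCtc

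A GC box was found in 32.7% of all promoters and in 6 of the 8. The Bhlhe41 stretch is chr6:145865421-145865670 on the minus strand, and capitals mark the E-box CACGTG, the element that BHLHE41 itself is known to bind.

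Bhlhe41: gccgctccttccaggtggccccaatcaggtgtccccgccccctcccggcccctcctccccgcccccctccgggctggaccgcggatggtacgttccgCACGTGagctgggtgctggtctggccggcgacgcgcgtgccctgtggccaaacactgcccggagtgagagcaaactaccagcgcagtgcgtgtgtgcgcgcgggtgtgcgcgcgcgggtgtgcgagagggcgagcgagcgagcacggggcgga

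This E-box was found in 6.02% of all promoters and in 3 of the 8, the others being Bmp4 and Tgfb2. The letters describe the windows only and were not tested for binding.

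**Figure D1:**
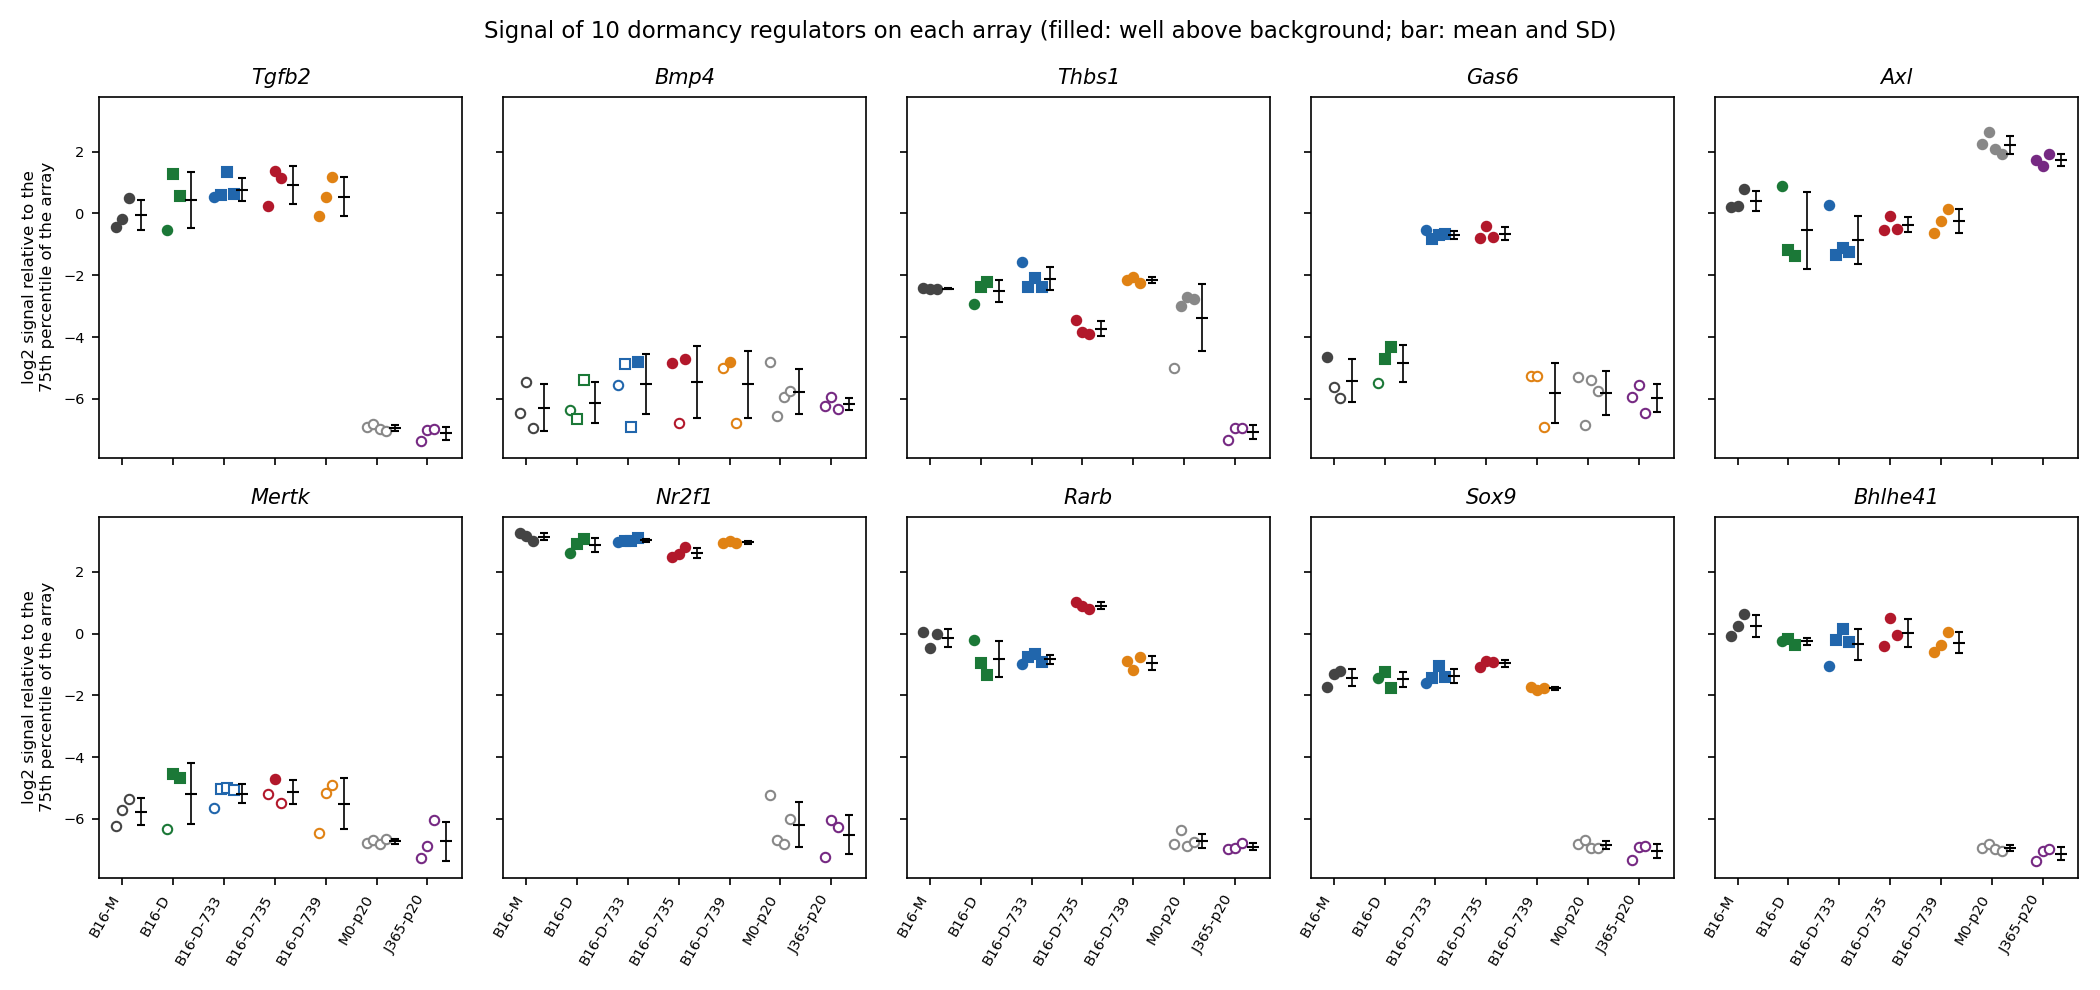
Log2 signal of each gene (y axis, relative to the 75th percentile of the array) on each array of the 7 lines (x axis). Filled symbols are well above background, squares are arrays whose titles share 1 date, bars are the mean and SD of the line, and B16-D replicate 2 is not drawn. Gas6 lies between -0.84 and -0.41 in B16-D-733 and B16-D-735 and at -4.33 or lower in the other lines, and 8 of the 10 genes are not above background in M0-p20 by these probes.

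The melanoma lines held RNA of most of these genes. Nr2f1, Bhlhe41, Sox9, Tgfb2, Axl, Thbs1 and Rarb were above background on every array of all 5 melanoma lines, which makes 7 genes in B16-M, B16-D and B16-D-739 and, with Gas6, 8 in B16-D-733 and B16-D-735. Bmp4 and Mertk stayed near background. In M0-p20 and J365-p20 only Axl was above background on every array.

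Among the ligands, Gas6 differed most between the dormant melanoma lines. Its log2 signal was -4.64, -5.62 and -5.97 on the 3 arrays of B16-M, of which 1 was above background, and -5.50, -4.72 and -4.33 in B16-D, of which 2 were. In B16-D-733 it was -0.54, -0.84, -0.70 and -0.68, and in B16-D-735 it was -0.79, -0.75 and -0.41. B16-D-739 gave -5.27, -5.25 and -6.92, with no array above background. Every array of B16-D-733 and B16-D-735 thus lay far above every array of the other lines, and the lines of the further generation split into a pair with Gas6 RNA and a line without a measurable level.

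Against B16-M, Gas6 rose by 4.72 on the log2 scale in B16-D-733 (SE 0.41, limma adjusted p = 1.15e-05) and by 4.76 in B16-D-735 (SE 0.44, limma adjusted p = 2.02e-05). The differences from B16-D were 4.16 and 4.2 (limma adjusted p = 0.000171 and 5.75e-05). Gas6 was above background on only 1 of 3 arrays of B16-M and 2 of 3 of B16-D, so these sizes rest in part on signals near it. Over the alternatives, the rise against B16-M ranged from 2.47 to 5.1 in B16-D-733 and from 2.54 to 5.14 in B16-D-735. Against B16-D the ranges were 2.35 to 4.42 and 2.42 to 4.49. B16-D-739 was at least 19.2-fold lower than B16-D-735 and at least 18.6-fold lower than B16-D-733 (limma adjusted p = 1.04e-05 and 4.10e-05), where the bound sets the dim line at the lowest signal still above background on each array. Between B16-D-735 and B16-D-733 the difference was 0.04, with a 95% confidence interval from -0.85 to 0.93. On each of the 3 slides taken alone, Gas6 was higher in B16-D-735 than in B16-M, by 3.89 to 5.56, and higher in B16-D-733, by 3.88 to 5.27. Only 1 probe of the array measures Gas6. With B16-D replicate 2 included, where Gas6 was at -1.12, the difference between B16-D-733 and B16-D was 3.22 and missed the threshold (limma adjusted p = 0.116).

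Thbs1 fell in B16-D-735 alone among the melanoma lines. The 3 arrays of B16-M read -2.41, -2.44 and -2.45, those of B16-D -2.92, -2.38 and -2.22, those of B16-D-733 -1.57, -2.38, -2.10 and -2.38, and those of B16-D-739 -2.15, -2.06 and -2.26. B16-D-735 read -3.44, -3.91 and -3.84, below every array of the other melanoma lines. The decrease was 1.30 on the log2 scale against B16-M (SE 0.22, limma adjusted p = 0.00364), and B16-D-735 also lay below B16-D (-1.22), B16-D-733 (-1.62) and B16-D-739 (-1.57), each with an adjusted p of 0.00465 or less in limma. The call against B16-D was lost when only the arrays of these lines were fitted (limma adjusted p = 0.103). The other Thbs1 probe was above background on 3 of 3 B16-M arrays and on 0 of 3 of B16-D-735, and its difference was -1.84.

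Tgfb2 did not pass the test in any dormant line. Its log2 signal was -0.44, -0.18 and 0.49 in B16-M, -0.52, 1.27 and 0.56 in B16-D, 0.52, 0.60, 1.33 and 0.63 in B16-D-733, 0.23, 1.14 and 1.38 in B16-D-735 and -0.08, 0.52 and 1.18 in B16-D-739. The fitted differences from B16-M, between 0.48 and 0.96, were all above 0, while the arrays of B16-D, B16-D-735 and B16-D-739 overlapped with those of B16-M and those of B16-D-733 lay just above them. The smallest limma adjusted p was 0.333. B16-D replicate 0, the only B16-D array without a date in its title, was 0.47 below the mean of B16-M, and the dated arrays of the same line were above that mean. Bmp4 was above background on 4 of 16 melanoma arrays and on none of 7 leukemia arrays, so no level can be given for either. On B16-D replicate 2 both Bmp4 probes were above background, at -2.11 and -2.28.

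The receptors gave a different picture. Axl was above background on every array of all lines and highest in the leukemia cells, at 2.24, 2.63, 2.09 and 1.92 in M0-p20 and 1.73, 1.53 and 1.92 in J365-p20. B16-M read 0.20, 0.24 and 0.79, B16-D-735 -0.52, -0.50 and -0.09, and B16-D-739 -0.63, -0.25 and 0.13. B16-D read 0.90, -1.18 and -1.37, and B16-D-733 0.29, -1.35, -1.12 and -1.26. In both of these lines the array without a date in its title was at or near the level of B16-M, and every dated array was lower than all undated melanoma arrays.

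The fitted Axl differences from B16-M were -0.96 in B16-D, -1.27 in B16-D-733, -0.78 in B16-D-735 and -0.66 in B16-D-739, and none passed the test (limma adjusted p from 0.204 to 0.744). Among undated arrays alone the differences were 0.49 in B16-D, from 1 array, and -0.11 in B16-D-733, also from 1 array. With the date as a block in limma they were 0.27 and 0.11, so that the direction turned. Without B16-D replicate 0, the fall in B16-D was 1.68 and passed the threshold (limma adjusted p = 0.0482). The B16-D and B16-D-733 values of Axl cannot be told apart from the date. The other Axl probe was above background on 4 of 4 arrays of M0-p20 and 2 of 3 of J365-p20, but on 3 of 16 melanoma arrays, and it did not follow the brighter probe on B16-D-733 replicate 3, where it read -2.28.

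**Figure D2:**
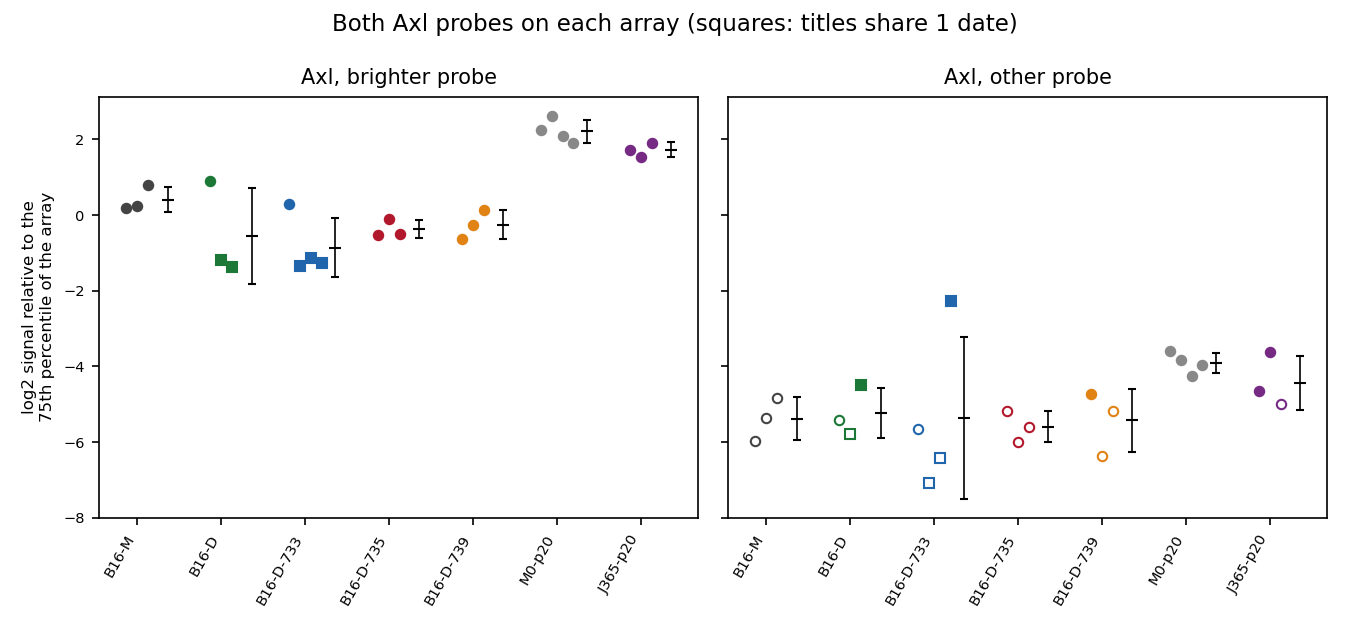
Log2 signal (y axis) of both Axl probes on each array of the 7 lines (x axis), with the brighter probe on the left. Symbols are as in the plot of all genes, with squares for arrays whose titles share 1 date. For the brighter probe the squares lie between -1.37 and -1.12, below the undated melanoma arrays, of which the lowest is at -0.63.

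Mertk, the other TAM receptor among the 10 genes, was above background on 2 of 3 arrays of B16-D, 1 of 3 of B16-D-735 and none of B16-M, B16-D-733 and B16-D-739. Its fitted differences from B16-M, between 0.25 and 0.62, did not pass the test. B16-D replicate 2 again stood out, at -2.51.

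Nr2f1 was strongly expressed in all melanoma lines. The log2 signal was 3.25, 3.15 and 3.01 in B16-M, 2.62, 2.90 and 3.07 in B16-D, 2.97, 3.01, 3.01 and 3.1 in B16-D-733, 2.92, 3.00 and 2.93 in B16-D-739 and 2.48, 2.80 and 2.57 in B16-D-735. Means of all dormant lines were below that of B16-M, and B16-D-735 was the lowest, with all of its arrays below those of B16-M. The fall in B16-D-735 was 0.52 on the log2 scale (SE 0.13, limma adjusted p = 0.0304), and the other lines differed from B16-M by -0.27, -0.11 and -0.18, without passing the test. The call for B16-D-735 was lost on leaving out B16-M replicate 0 or 1 or B16-D-735 replicate 0 or 1 (limma adjusted p from 0.0993 to 0.129). It was also lost when only these lines were fitted (limma adjusted p = 0.199).

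Rarb separated B16-D-735 from the other dormant lines. B16-M read 0.06, -0.47 and 0.00, and B16-D-735 read 1.01, 0.79 and 0.89. Lower values were found in B16-D (-0.20, -0.94 and -1.33), B16-D-733 (-0.99, -0.75, -0.66 and -0.91) and B16-D-739 (-0.89, -1.19 and -0.77). The arrays of B16-D-735 were above, and those of B16-D-733 and B16-D-739 below, every array of B16-M, while those of B16-D overlapped with it.

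In limma, Rarb rose by 1.03 on the log2 scale in B16-D-735 against B16-M (SE 0.24, limma adjusted p = 0.0241), and by 1.72, 1.73 and 1.84 against B16-D, B16-D-733 and B16-D-739 (limma adjusted p of 0.000667 or less). The difference from B16-D-733 and from B16-D-739 held under every alternative that was run, and that from B16-D was lost when only these lines were fitted (limma adjusted p = 0.0739). The difference from B16-M was lost on leaving out any 1 of the arrays of B16-D-735 or B16-M replicate 1 or 2, with limma adjusted p up to 0.115. It was also lost with the mean of all probes (0.56, limma adjusted p = 0.255). Values of the lower lines against B16-M were -0.69, -0.69 and -0.81, and missed the threshold (limma adjusted p = 0.152, 0.103 and 0.0953). Another Rarb probe that was above background on all melanoma arrays differed by 0.58 in B16-D-735 and by -0.90, -1.03 and -1.06 in B16-D, B16-D-733 and B16-D-739. With the mean of all probes the falls were 1.12, 1.25 and 1.14 and passed the threshold (limma adjusted p = 0.0216, 0.00467 and 0.0170). That mean includes a dim Rarb probe, above background on 1 of 3 arrays of B16-M and on none of these lower lines. Its differences were larger, at -1.79, -2.04 and -1.55, so these calls rest in part on signal near background.

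Sox9, a transcription factor of the neural crest and of stem cells, read -1.09, -0.92 and -0.89 in B16-D-735 and -1.74, -1.82 and -1.77 in B16-D-739, and these arrays did not overlap. The difference of 0.81 (SE 0.17) passed the test (limma adjusted p = 0.0125). It was lost without B16-D-735 replicate 2 (limma adjusted p = 0.0505), with normexp background correction (0.53, limma adjusted p = 0.0746) and with the mean of all probes (0.50, limma adjusted p = 0.103). B16-M, B16-D and B16-D-733 lay between -1.75 and -1.06, and no line differed from B16-M past the threshold. Bhlhe41 ranged from -1.04 to 0.62 over the 16 melanoma arrays. Its differences from B16-M were -0.51, -0.60, -0.23 and -0.56 in B16-D, B16-D-733, B16-D-735 and B16-D-739, with no call (limma adjusted p from 0.310 to 0.883).

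**Figure D3:**
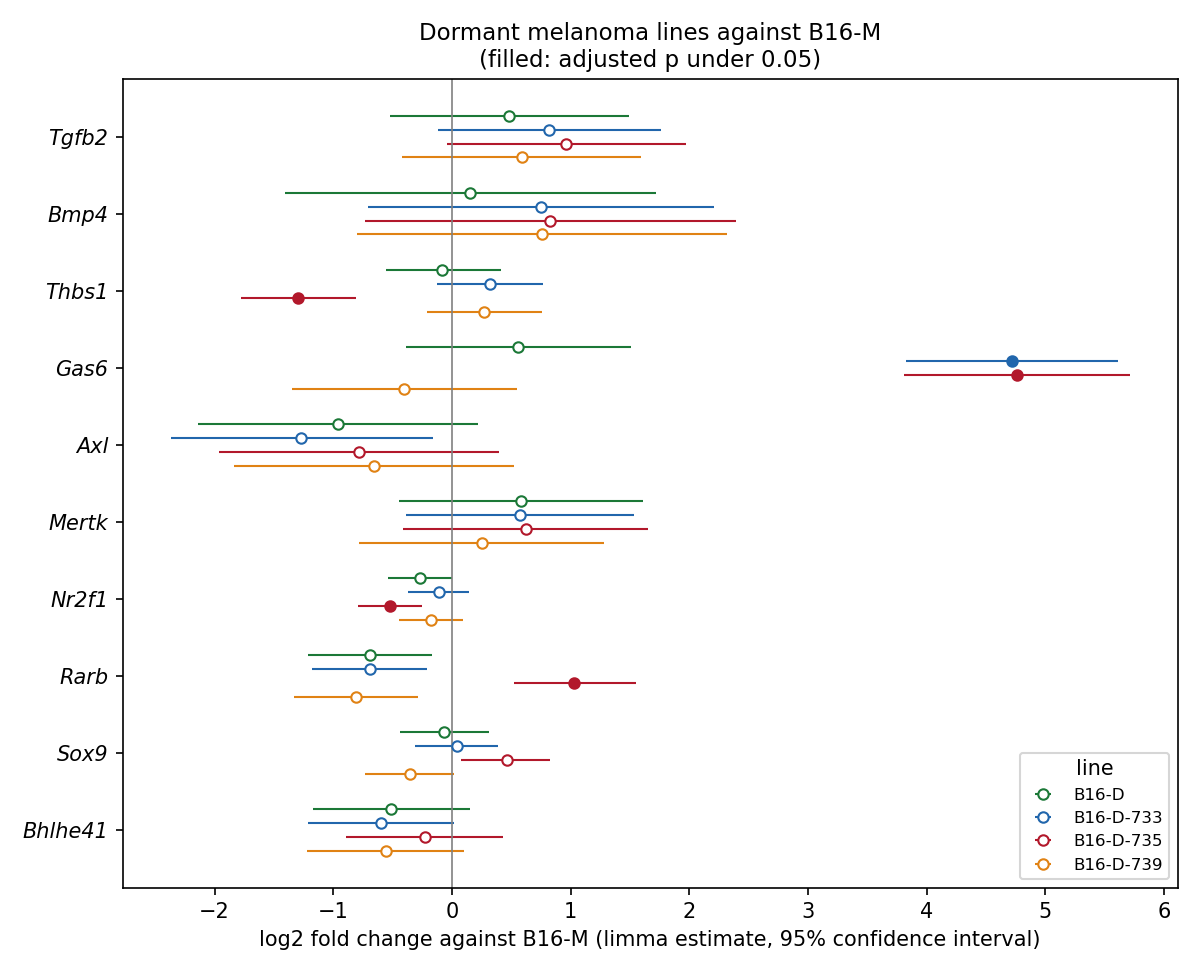
Log2 fold change against B16-M (x axis, limma estimate with 95% confidence interval) of each gene (y axis) in the 4 dormant melanoma lines, told apart by colour. Filled points passed the threshold. Gas6 rose in B16-D-733 and B16-D-735 (4.72 and 4.76), and B16-D-735 carried all the other calls.

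Counted over the 10 genes, none passed the test in B16-D against B16-M, where 3.6% of 24310 genes did. In limma, 2 of the 10 had an unadjusted p under 0.05, beside 4034 of the 24310 genes. The count past the threshold was 1, Rarb, with the mean of all probes, which includes its dim probe, and 2 without B16-D replicate 0. In B16-D-733 against B16-M 1 gene passed (5.57% of all genes), in B16-D-735 4 genes (5.03%) and in B16-D-739 none (3.71%). In B16-D-739, 1 of the 10 genes, Rarb, had an unadjusted p under 0.05 in limma, beside 3404 of the 24310 genes. Rarb passed there with the mean of all probes. Leaving out any 1 of the arrays of B16-M or B16-D-735 cut the count in B16-D-735 from 4 to 2 or 3. The median log2 fold change of the 10 genes was -0.07, 0.18, 0.54 and -0.27 in B16-D, B16-D-733, B16-D-735 and B16-D-739, beside -0.04, 0.03, -0.01 and 0.00 over all genes.

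Against B16-D, 1 of the 10 genes passed in B16-D-733 (0.481% of all genes), 3 in B16-D-735 (8%) and none in B16-D-739 (0.309%). In B16-D-739, 1 of the 10, Gas6, had an unadjusted p under 0.05 in limma, beside 1234 of 24310 genes. B16-D-735 differed from B16-D-733 in 2 genes (8.56%) and from B16-D-739 in 4 (6.86%). B16-D-739 differed from B16-D-733 in 1 gene, Gas6 (0.259%). These comparisons share arrays, so their counts are not separate evidence.

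Of the markers of other cell types, the endothelial ones were low in the melanoma lines (summed relative signal 0.074 to 0.117). Of 4 T cell markers, 3 were above background on every array of all 5 melanoma lines (1.37 to 3.81). Of 7 brain markers, 4 or 5 were above background on every array of each melanoma line. Among the melanoma lines, the summed signal of the fibroblast list was highest in B16-D-735 and that of the brain list in B16-D-733. Against B16-M, 1 of 4 tested fibroblast markers, Dcn, passed in B16-D-735, with a list median of 0.84 (all genes -0.01). Of 5 tested brain markers, 1, Mbp, passed in B16-D-733, with a list median of 0.07 (all genes 0.03). The shares of all genes that passed were 5.03% and 5.57%. The summed relative signal of 6 fibroblast markers was 1.09 to 1.51 in B16-D-735, 0.610 to 0.756 in B16-M, 0.514 to 0.649 in B16-D, 0.463 to 0.765 in B16-D-733 and 0.284 to 0.343 in B16-D-739. In B16-D-735, 3 of the 6 were above background on all arrays, among them Dcn, which was at least 7.80-fold above B16-M, and Col3a1, Lum and Pdgfra on none. The summed relative signal of 7 brain markers was 11.9 to 12.3 in B16-D-733, against 5.71 to 11.1 in B16-M, 6.55 to 10.6 in B16-D, 6.48 to 10.1 in B16-D-735 and 8.67 to 9.0 in B16-D-739. In the leukemia line M0-p20 it was 4.66 to 14.6. Mbp, a myelin gene, was higher in B16-D-733 than in B16-M by 2.14 (limma adjusted p = 0.00380) and than in B16-D by 2.12 (limma adjusted p = 0.0208). The astrocyte gene Slc1a3 and the neuronal gene Rbfox3 were above background on no melanoma array. The other 5 brain markers were above background on every array of B16-M, B16-D-733 and B16-D-739. The part of these markers in the Gas6, Rarb and Thbs1 values was not tested.

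In the leukemia cells, only Axl and Thbs1 could be tested between J365-p20 and M0-p20, and 1 of them passed, beside 1.07% of 22967 genes. Thbs1 read -5.0, -3.0, -2.72 and -2.78 in M0-p20, with 3 arrays above background, and -7.34, -6.94 and -6.96 in J365-p20, with none. It was at least 2.73-fold lower in J365-p20 (limma adjusted p = 0.0226). On each of the 3 slides M0-p20 read above J365-p20, whose signal was not above background. The call of Thbs1 held in 3 of the 11 alternatives in which it was tested. It missed the threshold on leaving out any 1 of the J365-p20 arrays (limma adjusted p from 0.102 to 0.153). Among other settings, it also missed with the slide as a block (limma adjusted p = 0.0535) and with normexp (-0.96, limma adjusted p = 0.301). With the replicate block the limma adjusted p was 0.0693. Thbs1 was not tested at all on leaving out M0-p20 replicate 1, 2 or 3, since too few arrays were then above background. The other Thbs1 probe was above background on no array of either leukemia line. Axl differed by -0.50 (SE 0.21, limma adjusted p = 0.730).

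The change of each gene from the parental to the dormant line was also compared between the models. Of the 10 genes, 1 differed, beside 2.28% of 26757 genes. The change of Thbs1 was higher by 3.63 in melanoma than in leukemia (SE 0.57, limma adjusted p = 0.000652), with -0.08 in B16-D against B16-M. The fit takes the J365-p20 signals below background as measured.

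Between the parental lines the 10 genes differed widely, as did the genes of the array as a whole, of which 56.2% passed the test between B16-M and M0-p20. The lines are of different tissues, and 7 of the 10 genes passed, 6 of them higher in B16-M. Nr2f1 was at least 223-fold higher in B16-M, Bhlhe41 at least 30.3-fold, Tgfb2 at least 24.6-fold and Rarb at least 23.1-fold, since none of their probes was above background in M0-p20. Sox9 passed too, with its brighter probe above background on 0 of 4 M0-p20 arrays. No bound is given for Sox9, since another of its probes was above background in M0-p20. The other Sox9 probe was above background on 2 of 4 arrays of M0-p20 and 3 of 3 of J365-p20 and differed by 1.00. Thbs1 was higher by 0.94 (limma adjusted p = 0.0460), a call lost in 9 of 17 alternatives, among them leaving out any 1 of the B16-M arrays (limma adjusted p from 0.0884 to 0.0979) or M0-p20 replicate 0 (0.40, limma adjusted p = 0.120). Axl was lower in B16-M by 1.81 (SE 0.44, limma adjusted p = 0.00175). Mertk differed by 0.97 and missed the threshold (limma adjusted p = 0.0527), and Gas6 and Bmp4 were near background in both lines.

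Other genes of the same pathways were counted from lists, to be read beside the shares of all genes that passed against B16-M. Those shares were 3.6% in B16-D, 5.57% in B16-D-733, 5.03% in B16-D-735 and 3.71% in B16-D-739. Values of the pathway genes come from the main fits only, which hold no term for the title date. Of 13 tested genes of retinoic acid signalling, 1 rose and 1 fell in B16-D against B16-M, 2 rose and 2 fell in B16-D-733, 2 rose in B16-D-735, and 1 rose and 1 fell in B16-D-739. Aldh1a3, an enzyme that makes retinoic acid, rose in all dormant melanoma lines, by 2.66 in B16-D, 2.91 in B16-D-733, 1.86 in B16-D-735 and 3.24 in B16-D-739 (limma adjusted p of 0.00110 or less). In leukemia it was at least 2.15-fold lower in J365-p20, where no array was above background (limma adjusted p = 0.000561). Rara, a retinoic acid receptor, fell by 0.60, 0.71 and 0.51 in B16-D, B16-D-733 and B16-D-739, and was higher in B16-D-735 than in these lines by 0.55, 0.66 and 0.46. Rdh10, which makes retinal from retinol, rose by 0.45 in B16-D-733 and 0.48 in B16-D-735.

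Of 27 tested genes of TGF-β and BMP signalling, none passed in B16-D against B16-M in limma, 1 rose and 1 fell in B16-D-733, 1 fell in B16-D-735 and 1 rose in B16-D-739. Tgfb1 fell by 2.2 in B16-D-733 (SE 0.40, limma adjusted p = 0.00556), and Smad3, a signal transducer, fell by 0.36 in B16-D-735 (limma adjusted p = 0.0360). Smad3 and the decoy receptor Bambi were lower in B16-D-735 than in each of B16-D, B16-D-733 and B16-D-739. Ltbp1, which holds latent TGF-β in the matrix, was the gene that rose in B16-D-733 and B16-D-739. It was above background on 0 of 3 arrays of B16-M, 1 of 4 of B16-D-733 and 2 of 3 of B16-D-739, and at least 1.49-fold higher in B16-D-739. The median of the list in the 4 comparisons with B16-M lay between -0.17 and 0.07.

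Of 8 genes around the TAM receptors, 1 fell in B16-D against B16-M, 1 rose and 1 fell in B16-D-733 and in B16-D-735, and 1 rose in B16-D-739. Tyro3, the TAM receptor that was not among the 10 genes, rose by 1.04, 0.59 and 1.01 in B16-D-733, B16-D-735 and B16-D-739. Socs3, a feedback inhibitor of cytokine signals, fell by 0.65 in B16-D and 0.71 in B16-D-733, which are the lines with dated arrays. All arrays of both lines, dated or not, lay below those of B16-M, and the part of the date in Socs3 was not tested. Adam10, a protease that sheds AXL, fell by 0.68 in B16-D-735. None of the 8 passed in J365-p20 against M0-p20.

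Of 9 tested thrombospondins and receptors, 2 passed in each dormant melanoma line against B16-M. Thbs2 rose by 1.60 in B16-D, 1.37 in B16-D-733 and 1.83 in B16-D-739, and was lower in B16-D-735 than in B16-D-739 by 1.36 on the log2 scale. Thbs3 fell in all dormant lines, by 0.65, 0.91, 0.83 and 0.89 in B16-D, B16-D-733, B16-D-735 and B16-D-739, and Itgav, an integrin subunit, fell by 0.44 in B16-D-735. Of 15 partners of BHLHE41, kinases and CDK inhibitors, 1 passed in B16-D, 1 in B16-D-733, 4 in B16-D-735 and 2 in B16-D-739. Mapk12, a p38 kinase, fell in all of them, by 0.67, 0.78, 0.59 and 0.83. In B16-D-735, Mapk13, another p38 kinase, rose by 1.48 and Bhlhe40, the closest relative of Bhlhe41, by 0.67, while Plaur, the urokinase receptor, fell by 0.98. Of 9 tested SOX and stem cell genes, 1 rose in each dormant line. This was Lifr, the receptor of leukemia inhibitory factor, which was not above background in B16-M. It was at least 1.25-fold higher in B16-D and at least 1.39-fold higher in B16-D-735, with bounds of 2.48-fold in B16-D-733 and 2.45-fold in B16-D-739.

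**Figure D4:**
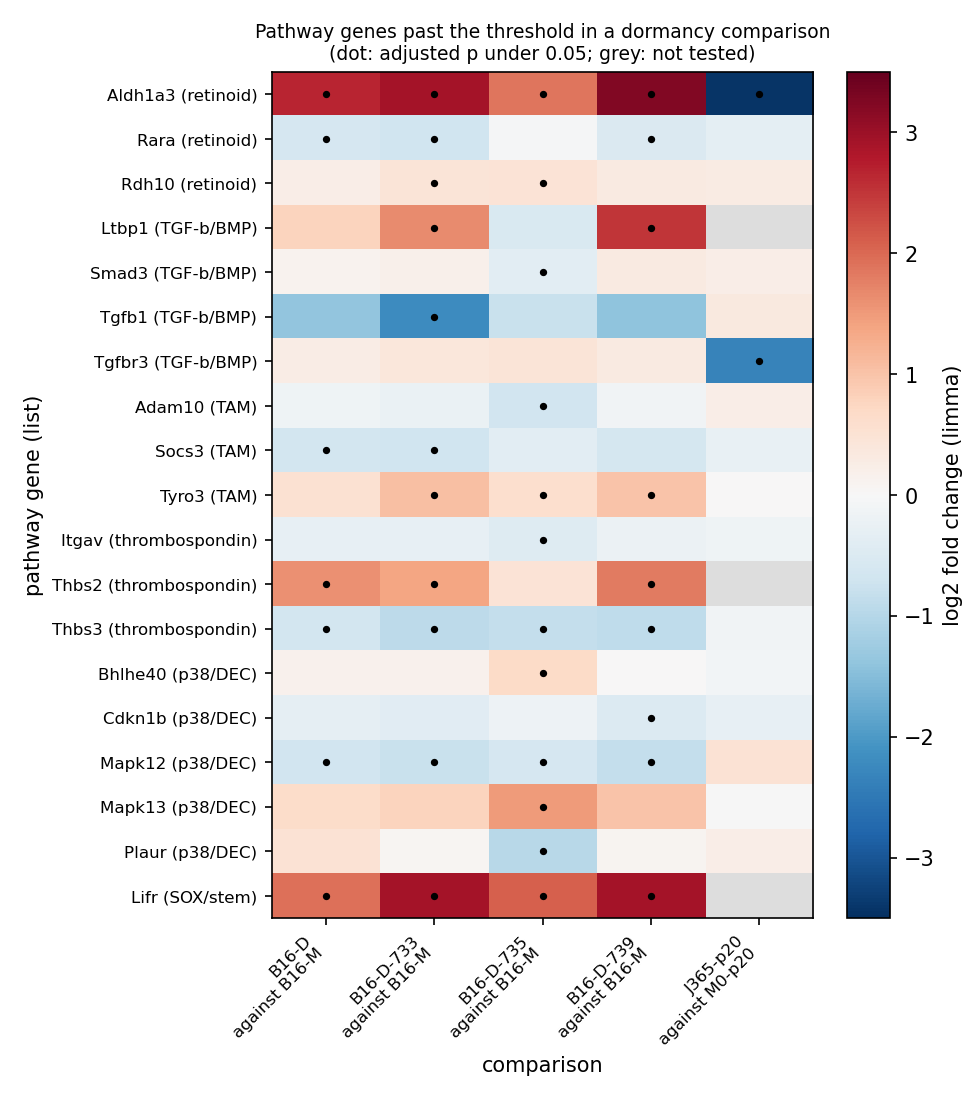
Log2 fold change (colour, limma) of the named pathway genes and others of their lists (y axis, with the list) that passed the threshold in at least 1 of 5 comparisons of a dormant with a parental line (x axis). Dots mark an adjusted p under 0.05, and grey marks genes that were not tested. Aldh1a3, Thbs3, Mapk12 and Lifr carry a dot in all comparisons with B16-M, and Aldh1a3 has the opposite direction in J365-p20.

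The genes whose log2 signals were most like those of the called members over the 16 melanoma arrays were found by Pearson correlation. The search covered 13048 tested genes with a symbol, without clone names and predicted genes, as a description over arrays that share lines. For Gas6 these were Spp1 (r = 0.918), which codes for osteopontin, and Sult6b1 (0.902). For Rarb they were Nol3 (0.978) and Tnip1 (0.977), for Thbs1 Epor (0.943) and Pgrmc2 (0.937), for Nr2f1 Sntb2 (0.932) and Rsl1 (0.910), and for Sox9 Sectm1a (0.878) and Yipf5 (0.874).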

How the data were processed

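RNA of 7 cell lines was measured on 24 Agilent 1-colour arrays, 3 slides of 8. The authors labelled the RNA with Cy3 and deposited, per the file headers, the processed intensity of each spot after background subtraction by Agilent Feature Extraction 10.7.3.1, without scaling between arrays. The deposited series table holds the same intensity values. The sample titles give the groups and replicate numbers. A title of B16-D-733 repeats the number 1 and was numbered replicate 3 here. The leukemia lines are read as DA1-3b and its dormant derivative because the study describes a single leukemia comparison.

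Of 62976 spots, 3671 are controls. The remaining 59305 measure 56605 probes. Outlier spots (2468 over all arrays) were left out and none was saturated. Log2 intensity was expressed relative to the 75th percentile of each array, and the brightest probe over 23 arrays stood for a gene. Genes were tested where that probe was well above background on at least 3 arrays of a fit. B16-D replicate 2 was left out. The differences between lines come from limma 3.58.1 (R 4.3.3), in fits of 16 melanoma arrays, 7 leukemia arrays or all 23, two-sided, with Benjamini-Hochberg adjustment of the p-values of every gene in the fit. The number of arrays limits the precision.

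The 10 genes, the pathway lists and the tests were chosen with earlier results of these data known. All 10 genes are named. From each list at most 3 genes per comparison are named, those with the largest change among genes past the threshold that were above background on every array of a compared line. Ltbp1, Lifr in B16-D, Mapk12 in B16-D-735, Rdh10 in B16-D-733, Dcn and Mbp stand outside this rule and were chosen after their values were seen. Some genes of the lists are counted but not reported here by name, and are not drawn. For each called member the 2 most correlated genes are named. Tables were handled in Python 3.11.15 with pandas 2.3.3. Alternatives were quantile normalization, normexp background correction, filters, choices of probe, blocks and left-out arrays. Normexp was run on the median spot signal, since the planned mean signal is not a column of the files. On simulated data for B16-D-735 against B16-M with 24310 genes, 46 of 100 genes changed by 1 on the log2 scale and 72 of 100 changed by 2 were recovered. Among the unchanged genes, 8 were called. The noise was drawn separately for each gene and array, so deviations that arrays share were not simulated.

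Whether replicate numbers pair the arrays was checked from the deviations of each array from its line mean. All same-number correlations were over 0.1 for B16-D-733 with B16-M (0.35 to 0.82), B16-D-739 with B16-M (0.58 to 0.83) and B16-D-739 with B16-D-733 (0.47 to 0.83), and not for the other comparisons. Every same-number pair of B16-D-739 and B16-M shared a slide, so number and slide cannot be told apart there. The values of 0.82 and 0.83 were all of replicate 2, whose arrays in these lines lay on the same slide.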

Additional observations from a re-analysis of the deposited data

Results flagged for a closer look

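Of 21 pairs of a gene and a line of 4 arrays, 4 had 1 array far from the others, where about 1 in 20 would be expected by chance. Axl on B16-D replicate 0 was at 0.90 with the others, B16-D replicate 2 among them, between -1.37 and -1.18 (gap over range 0.916), and on B16-D-733 replicate 0 it was at 0.29 with the others between -1.35 and -1.12 (0.860). Both are the arrays of their lines without a date in the title. Tgfb2 on B16-D-733 replicate 2 was at 1.33 with the others between 0.52 and 0.63 (0.864), and Thbs1 on M0-p20 replicate 0 was at -5.0, not above background, with the others between -3.0 and -2.72 (0.877).

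The change of Thbs1 with dormancy differed between the models by 3.63 on the log2 scale in limma, where J365-p20 was below background on all 3 arrays.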

How the results depend on the processing

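Of 877 alternative values for 51 gene values, 817 kept their direction and their side of the threshold, 38 lost a call, 6 gained one and 16 changed sign, all of the last without a call in either setting. The calls of Gas6 held in every setting, except that of B16-D-733 against B16-D with B16-D replicate 2 included.

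Counts of the 10 genes past the threshold moved by over 1.5 times in some settings. With the mean of all probes the count was 1 for B16-D and 1 for B16-D-739 against B16-M and 2 for B16-D-733 against B16-M. The added gene was Rarb each time, with its dim probe in the mean. Normexp gave 2 for B16-D-733 against B16-M and 0 for the difference between the models. For B16-D-735 against B16-M, 2 passed with no filter and 2 with only the compared lines, and for B16-D-735 against B16-D 1 passed with only the compared lines. B16-D-733 against B16-D had 0 with B16-D replicate 2 included. In J365-p20 against M0-p20 the count was 0 with quantile normalization, normexp, the filter on every array of a line, the mean of all probes, the slide as a block and the replicate block. Leaving out 1 array gave 0 to 2 for B16-D against B16-M, 2 to 3 for B16-D-735 against B16-M, 0 to 1 for J365-p20 against M0-p20.

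Signs turned for Bhlhe41 in B16-D-735 against B16-M with the mean of all probes (0.04). Sox9 turned in B16-D with the replicate block (0.06) and on leaving out 1 array (-0.22 to 0.07), and in B16-D-733 with normexp (-0.10), the title date as a block (-0.06) and on leaving out 1 array (-0.12 to 0.15). With the title date as a block, Tgfb2 in B16-D was -0.08 and Axl was 0.27 in B16-D and 0.11 in B16-D-733. Thbs1 in B16-D was 0.04 with quantile normalization, 0.04 with the slide as a block, 0.14 with B16-D replicate 2 and -0.22 to 0.13 on leaving out 1 array (0.13 without B16-D replicate 0), and in B16-D-733 it was -0.04 with the mean of all probes. The cause was not tested.

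With the replicate block, the count of the 10 genes moved by over 1.5 times in J365-p20 against M0-p20 and in no other comparison. Over all genes, the number called ranged over the alternatives for B16-D against B16-M 86 to 1248 (beside 876), B16-D-733 against B16-M 737 to 2203 (beside 1355), B16-D-735 against B16-M 530 to 2154 (beside 1224), B16-D-739 against B16-M 462 to 1485 (beside 901), B16-D-733 against B16-D 55 to 150 (beside 117), B16-D-735 against B16-D 312 to 2797 (beside 1946), B16-D-739 against B16-D 1 to 102 (beside 75), B16-D-735 against B16-D-733 1195 to 3442 (beside 2081), B16-D-735 against B16-D-739 728 to 2934 (beside 1668), B16-D-739 against B16-D-733 39 to 79 (beside 63), J365-p20 against M0-p20 117 to 268 (beside 245), the difference between the models 385 to 830 (beside 610).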

Other observations

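On B16-D replicate 2, the array with 90.3% of spots above background, genes that were near background on the other B16-D arrays read higher: Gas6 at -1.12, Bmp4 at -2.11 and Mertk at -2.51, while Nr2f1 at 2.93 and Rarb at -1.24 lay within or close to the range of the other arrays of the line.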
